A study of Homo sapiens with 44 samples.

Results

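The genes described here are SAT1 and 9 other genes of polyamine metabolism, 10 genes in all, out of 18797 in the table of the GAS41 experiment and 21159 in the table of the doxorubicin experiment. They were taken from both tables by gene symbol, all 10 were present in each, and all 10 passed the filter on low reads that was set for testing. SAT1 was chosen by its measured level, for its rise in the GAS41 knockout over WT, so its level there is a description and has no test, and the same holds for every comparison that shares the GAS41-KO or WT libraries. The other 9 genes were named for their roles in the pathway, but with earlier results of these data known. Their tests are therefore not free of that knowledge.

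Polyamines (putrescine, spermidine and spermine) are small positively charged molecules that bind nucleic acids and are needed for growth. Ornithine decarboxylase makes putrescine, and spermidine synthase and spermine synthase then add aminopropyl groups supplied by decarboxylated S-adenosylmethionine. SAT1 acetylates spermidine and spermine, which marks them for export or oxidation, and antizymes bind ornithine decarboxylase and send it to the proteasome. Colon tumours are known for high ornithine decarboxylase activity, and several enzymes of the pathway are strongly controlled after transcription, which RNA levels do not show.

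The RNA came from HCT116, an established human colon cancer cell line with normal p53. In the GAS41 experiment there were 3 libraries each from GAS41 knockout cells stably expressing GFP-Flag-tagged GAS41 with the YEATS domain substitutions Y74A and W93A (mut rescue), knockout cells stably expressing the same tagged protein without them (wt rescue), knockout cells (GAS41-KO) and wild-type cells (WT). GAS41 is a chromatin protein whose YEATS domain binds acylated histone tails. The doxorubicin experiment had 3 libraries of wild-type HCT116 treated with doxorubicin at 500 nM, which damages DNA through topoisomerase, and 3 libraries treated with DMSO. The labels do not say how long the drug was given, how many clones each line represents or which part of the gene was deleted. They call the samples biological replicates without naming separate cultures, so the p-values measure the spread between these samples, which may be technical.

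Library totals ranged over 16857982 to 18546135 reads for the GAS41 libraries and 17442035 to 18894312 reads for the doxorubicin and DMSO libraries. RNA of YEATS4, the gene that encodes GAS41, averaged 2482 ± 108 normalized reads in mut rescue, 3253 ± 323 in wt rescue, 349 ± 32.3 in GAS41-KO and 618 ± 8.98 in WT (SD, n = 3 each). It was therefore still present in the knockout libraries, and whether these reads cover the edited part of the gene is not given. Doxorubicin cells had 185 ± 10.7 and DMSO cells 668 ± 48.3. Among the markers of the colon epithelium, 6 of 8 were tested in the GAS41 experiment and 7 of 8 in the other, with VIL1 and CDX1 the missing ones in the GAS41 experiment. Their summed level was 65769 to 79806 normalized reads in mut rescue, 76403 to 89253 in wt rescue, 63425 to 65289.8 in GAS41-KO and 56788 to 60419 in WT. It was 145918 to 165100 in doxorubicin cells and 72241 to 87962 in DMSO cells, while EPCAM averaged 4938 ± 409 and 7198 ± 391 there. CDH1 averaged 2105 ± 85.3 in doxorubicin cells and 1405 ± 32.0 in DMSO cells, and KRT8, KRT18, KRT19, VIL1 and CDX2 also had higher means with the drug. Single markers differed between the groups, with the adhesion genes EPCAM and CDH1 low in GAS41-KO and mut rescue, where SAT1 was high. EPCAM and CDH1 averaged 1670.2 ± 162 and 163 ± 13.6 in mut rescue, 9012 ± 782 and 1350 ± 103 in wt rescue, 915 ± 17.0 and 138 ± 15.1 in GAS41-KO, and 7503 ± 348 and 1419 ± 17.0 in WT (SD, n = 3 each). KRT8 and KRT18 rose in GAS41-KO over WT, while KRT19 and CDX2 were not called there (limma adjusted p = 0.866 and 0.426). The part of these marker shifts in the results on the 10 genes was not tested. Of the 6 fibroblast markers COL1A1 and COL3A1 were tested in the GAS41 experiment, where the list summed to 160.6 to 335 normalized reads. In the doxorubicin experiment COL1A1 and PDGFRB were tested, and the list summed to 327 to 406 in doxorubicin cells and 246 to 339 in DMSO cells. PDGFRB averaged 26.0 ± 5.78 in doxorubicin cells and 4.63 ± 1.15 in DMSO cells. COL3A1 averaged 8.002 ± 3.99 in mut rescue, 0 in wt rescue, 18.6 ± 8.38 in GAS41-KO and 0.633 ± 0.548 in WT. It reached the 10 reads of the filter only in the GAS41-KO libraries and in mut rescue replicate 1, so it passed through the groups where it was high. The 5 blood and immune markers summed to at most 11.8 normalized reads in any library. Of the 4 endothelial markers PECAM1 and VWF were tested, in the doxorubicin experiment alone. The 4 summed to 32.6 to 39.5 normalized reads in doxorubicin cells and 15.3 to 25.8 in DMSO cells. wt rescue replicate 1 stood apart from replicates 2 and 3, with root mean square log2 differences of 0.26 and 0.21 over all tested genes, against 0.11 between replicates 2 and 3. In the other groups of this experiment these differences lay between 0.09 and 0.20. mut rescue replicate 2 stood 0.16 from replicate 1 and 0.20 from replicate 3, against 0.11 between replicates 1 and 3. Normalized reads here are reads divided by the size factor of the library, and since the tables give no transcript lengths, levels are compared between groups for 1 gene and not between genes.

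The sequence around the start of transcription is shown for SAT1, which was highest in GAS41-KO, and for the windows that hold the letters CACGTG. MYC, whose binding the study also mapped, is known to act on ODC1 through these letters. The windows with them belong to ODC1 and SRM, so these were picked by the match and not by their levels. ODC1, SRM and SMS were all lower in GAS41-KO than in WT, and the SMS window holds no CACGTG. Windows from RefSeq (GRCh38.p14) were found for 7 of the 10 genes; the windows of SAT1 (chrX:23782923-23783222, plus strand), of the second listed start of ODC1 (chr2:10447963-10448262, minus strand) and of SRM (chr1:11059969-11060268, minus strand) follow, 5′ to 3′ along the gene, with CACGTG in capitals.
SAT1: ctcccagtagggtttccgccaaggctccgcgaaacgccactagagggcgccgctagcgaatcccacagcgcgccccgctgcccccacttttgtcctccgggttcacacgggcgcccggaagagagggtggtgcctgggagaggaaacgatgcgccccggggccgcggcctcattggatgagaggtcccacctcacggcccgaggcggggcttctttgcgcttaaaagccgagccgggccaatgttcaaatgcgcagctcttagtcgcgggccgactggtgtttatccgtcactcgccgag
ODC1: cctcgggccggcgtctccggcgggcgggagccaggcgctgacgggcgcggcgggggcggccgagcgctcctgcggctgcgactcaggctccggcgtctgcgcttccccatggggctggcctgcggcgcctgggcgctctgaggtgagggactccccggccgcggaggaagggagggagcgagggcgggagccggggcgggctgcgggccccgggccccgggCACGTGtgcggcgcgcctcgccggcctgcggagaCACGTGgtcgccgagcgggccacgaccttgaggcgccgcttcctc
SRM: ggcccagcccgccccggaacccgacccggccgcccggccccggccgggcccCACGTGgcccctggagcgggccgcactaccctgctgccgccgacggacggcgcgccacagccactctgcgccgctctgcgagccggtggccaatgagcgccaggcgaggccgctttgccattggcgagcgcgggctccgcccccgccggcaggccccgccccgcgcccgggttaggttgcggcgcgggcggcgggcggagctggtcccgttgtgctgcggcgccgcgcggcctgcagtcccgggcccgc
The letters CACGTG, which read the same on both strands, occur at positions -29 and 6 from the second ODC1 start and at -199 from the SRM start, and in no window of the other 5 genes or in that of the first ODC1 start. Of 35116 human windows of this length, 7.26% hold them. Of the other motifs searched on both strands, the decamer of the p53 response element, held by 6.63% of all windows, had no match in those of these 7 genes, and an interferon response motif, held by 3.57%, matched in OAZ1 alone, at 2 overlapping places. A match of letters in so short a window is a description and does not show binding, nor does its lack show anything of the factor.

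SAT1 encodes spermidine/spermine N1-acetyltransferase, the enzyme that starts polyamine breakdown. It had 13942, 12657 and 13462 normalized reads in mut rescue, 2252, 2493 and 2300 in wt rescue, 25822, 24776 and 24813 in GAS41-KO, and 4068, 4003 and 4150 in WT. The 4 groups did not overlap, with wt rescue lowest, WT next, then mut rescue, and GAS41-KO highest. The means were 13353 ± 649 in mut rescue, 2348 ± 128 in wt rescue, 25137 ± 593 in GAS41-KO and 4074 ± 73.4 in WT (SD, n = 3 each). SAT1 was thus 6.17-fold higher in GAS41-KO than in WT, which is the value it was chosen for, and 10.7-fold lower in wt rescue than in GAS41-KO. It was 1.88-fold lower in mut rescue than in GAS41-KO and 3.28-fold higher in mut rescue than in WT. The level in wt rescue was 1.73-fold below that in WT.

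Scaled to the library total instead of by the size factor, SAT1 stood at 771 ± 44.0 CPM in mut rescue, 125 ± 4.83 CPM in wt rescue, 1489 ± 24.5 CPM in GAS41-KO and 240 ± 3.60 CPM in WT (SD, n = 3 each). The order of the groups was that of the normalized reads.

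**Figure D1:**
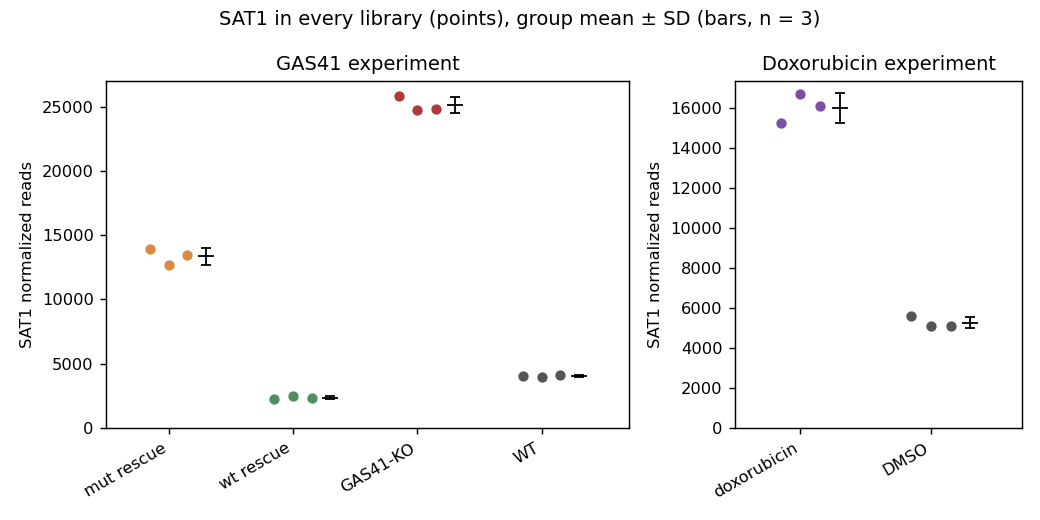
Normalized reads of SAT1 (vertical axis) in each library of the GAS41 experiment (left) and the doxorubicin experiment (right), by group; points are libraries and bars the mean ± SD (n = 3). GAS41-KO libraries lie between 24776 and 25822, above mut rescue, and doxorubicin libraries between 15245 and 16727, above DMSO.

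The difference between the rescue lines is taken between libraries on which SAT1 was not chosen, so it was tested there, although the GAS41-KO and WT libraries share in the estimate of the spread. Both lines are knockout cells, in which SAT1 was chosen for being high, so the test is not independent of that choice. SAT1 was 5.69-fold higher in mut rescue than in wt rescue (log2 change 2.43, 95% confidence interval 2.31 to 2.56, limma adjusted p = 4.53e-14), and all 3 mut rescue libraries lay above all 3 wt rescue libraries. With only the 6 rescue libraries in the fit the limma adjusted p was 4.74e-09. On the deposited log2 scale, this was the rise ranked 12 among 14505 tested genes. YEATS4 RNA also differed between these lines, with 2482 ± 108 normalized reads in mut rescue and 3253 ± 323 in wt rescue, and its part in the SAT1 difference was not tested.

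Doxorubicin over DMSO was the other comparison in which SAT1 was tested, with libraries of a separate experiment. SAT1 had 15245, 16727 and 16092 normalized reads in doxorubicin cells, against 5600, 5113 and 5111 in DMSO cells. The groups were far apart, and SAT1 was 3.04-fold higher with the drug (log2 change 1.57, 95% confidence interval 1.41 to 1.73, limma adjusted p = 1.34e-09). The change ranked 243 from the highest among 14195 tested genes, of which 32.3% were called higher. SAT1 is a known target of p53, and the part of p53 in this rise was not tested.

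Among the 4 genes of polyamine synthesis, ODC1, SRM and SMS fell in GAS41-KO over WT and AMD1 did not pass the threshold. Of the 9 genes beside SAT1, 1 rose (OAZ2) and 4 fell (ODC1, SRM, SMS and AZIN1). Of the 14505 tested genes 52.6% were called in GAS41-KO over WT, 26% higher and 26.6% lower, so 5 of 9 is near the background. GAS41-KO and WT libraries did not overlap for any of the 9, nor for 69% of tested genes. The median log2 change of the 9 was -0.19, against -0.01 over all tested genes. With only the GAS41-KO and WT libraries in the fit 8 of the 9 were called, with AMD1, OAZ1 and SMOX added.

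ODC1, ornithine decarboxylase, makes putrescine and is the first enzyme of synthesis. It had 11036, 10820 and 10189 normalized reads in mut rescue, 16018, 19371 and 18245 in wt rescue, 8218, 7661 and 8002 in GAS41-KO, and 12754, 12386 and 12172 in WT. No 2 groups overlapped, and the order of the 4 groups was the reverse of that of SAT1. ODC1 fell in GAS41-KO, with a mean of 7960 ± 280 against 12437 ± 294 in WT (log2 change -0.63, limma adjusted p = 1.17e-06). It rose in wt rescue over GAS41-KO, 2.25-fold (log2 change 1.15, limma adjusted p = 9.03e-10), and by less in mut rescue over GAS41-KO, 1.34-fold (log2 change 0.42, limma adjusted p = 0.000629). Between the rescue lines it was lower in mut rescue, 10682 ± 440 against 17878 ± 1707 in wt rescue (log2 change -0.73, limma adjusted p = 2.81e-07). ODC1 in wt rescue was also 1.44-fold above WT (limma adjusted p = 5.24e-05).

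MYC, a transcription factor known to activate ODC1, averaged 5218 ± 635 normalized reads in mut rescue, 7304 ± 684 in wt rescue, 3628 ± 50.5 in GAS41-KO and 5812 ± 96.1 in WT (SD, n = 3 each). Its 4 group means stood in the same order as those of ODC1, and its part in the ODC1 levels was not tested.

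SRM, spermidine synthase, had 1561, 1916 and 1345 normalized reads in mut rescue, 2485, 2563 and 2778 in wt rescue, 1294, 1462 and 1406 in GAS41-KO, and 1758, 1978 and 1801 in WT. wt rescue lay above all other groups, and mut rescue overlapped both GAS41-KO and WT. SRM fell in GAS41-KO compared with WT (log2 change -0.38, limma adjusted p = 0.00314), rose 1.88-fold in wt rescue over GAS41-KO (log2 change 0.84, limma adjusted p = 1.05e-06) and was lower in mut rescue than in wt rescue (log2 change -0.66, limma adjusted p = 2.07e-05). Its difference between mut rescue and GAS41-KO did not pass the threshold (log2 change 0.18, 95% confidence interval -0.02 to 0.38, limma adjusted p = 0.226).

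SMS, spermine synthase, had 2959, 2935 and 2913 normalized reads in mut rescue, 4395, 5022 and 5034 in wt rescue, 2923, 2706 and 2724 in GAS41-KO, and 3967, 3610 and 3933 in WT. mut rescue and GAS41-KO overlapped at the low end, WT stood between and wt rescue was highest. SMS fell in GAS41-KO over WT (log2 change -0.44, limma adjusted p = 3.22e-05) and rose 1.73-fold in wt rescue over GAS41-KO (log2 change 0.76, limma adjusted p = 6.13e-08). It was lower in mut rescue than in wt rescue (log2 change -0.68, limma adjusted p = 3.47e-07) and lower in mut rescue than in WT (log2 change -0.37, limma adjusted p = 0.000237).

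AMD1 makes the aminopropyl donor, decarboxylated S-adenosylmethionine. Its normalized reads were 3015, 2683 and 2885 in mut rescue, 3158, 1856 and 2087 in wt rescue, 2865, 2444 and 2613 in GAS41-KO, and 3226, 3158 and 3126 in WT. wt rescue replicate 1 was at the level of WT and the other wt rescue replicates were below every other library. With all libraries AMD1 fell in wt rescue over WT (log2 change -0.43, limma adjusted p = 0.0108), but with wt rescue replicate 1 alone in its group, a single library assumed to vary like the others, the change was -0.0049 (limma adjusted p = 0.979). The call was also lost without wt rescue replicate 2 (limma adjusted p = 0.0616) or replicate 3 (limma adjusted p = 0.0547). Over GAS41-KO the change was -0.18 with all libraries (limma adjusted p = 0.224), -0.39 without wt rescue replicate 1 (limma adjusted p = 4.73e-05) and 0.25 with that library alone (limma adjusted p = 0.0213). GAS41-KO over WT gave -0.25 and did not pass the threshold (limma adjusted p = 0.110). AMD1 passed there with only those groups fitted, and with the replicate number as a block, which the labels do not say pairs the samples.

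**Figure D2:**
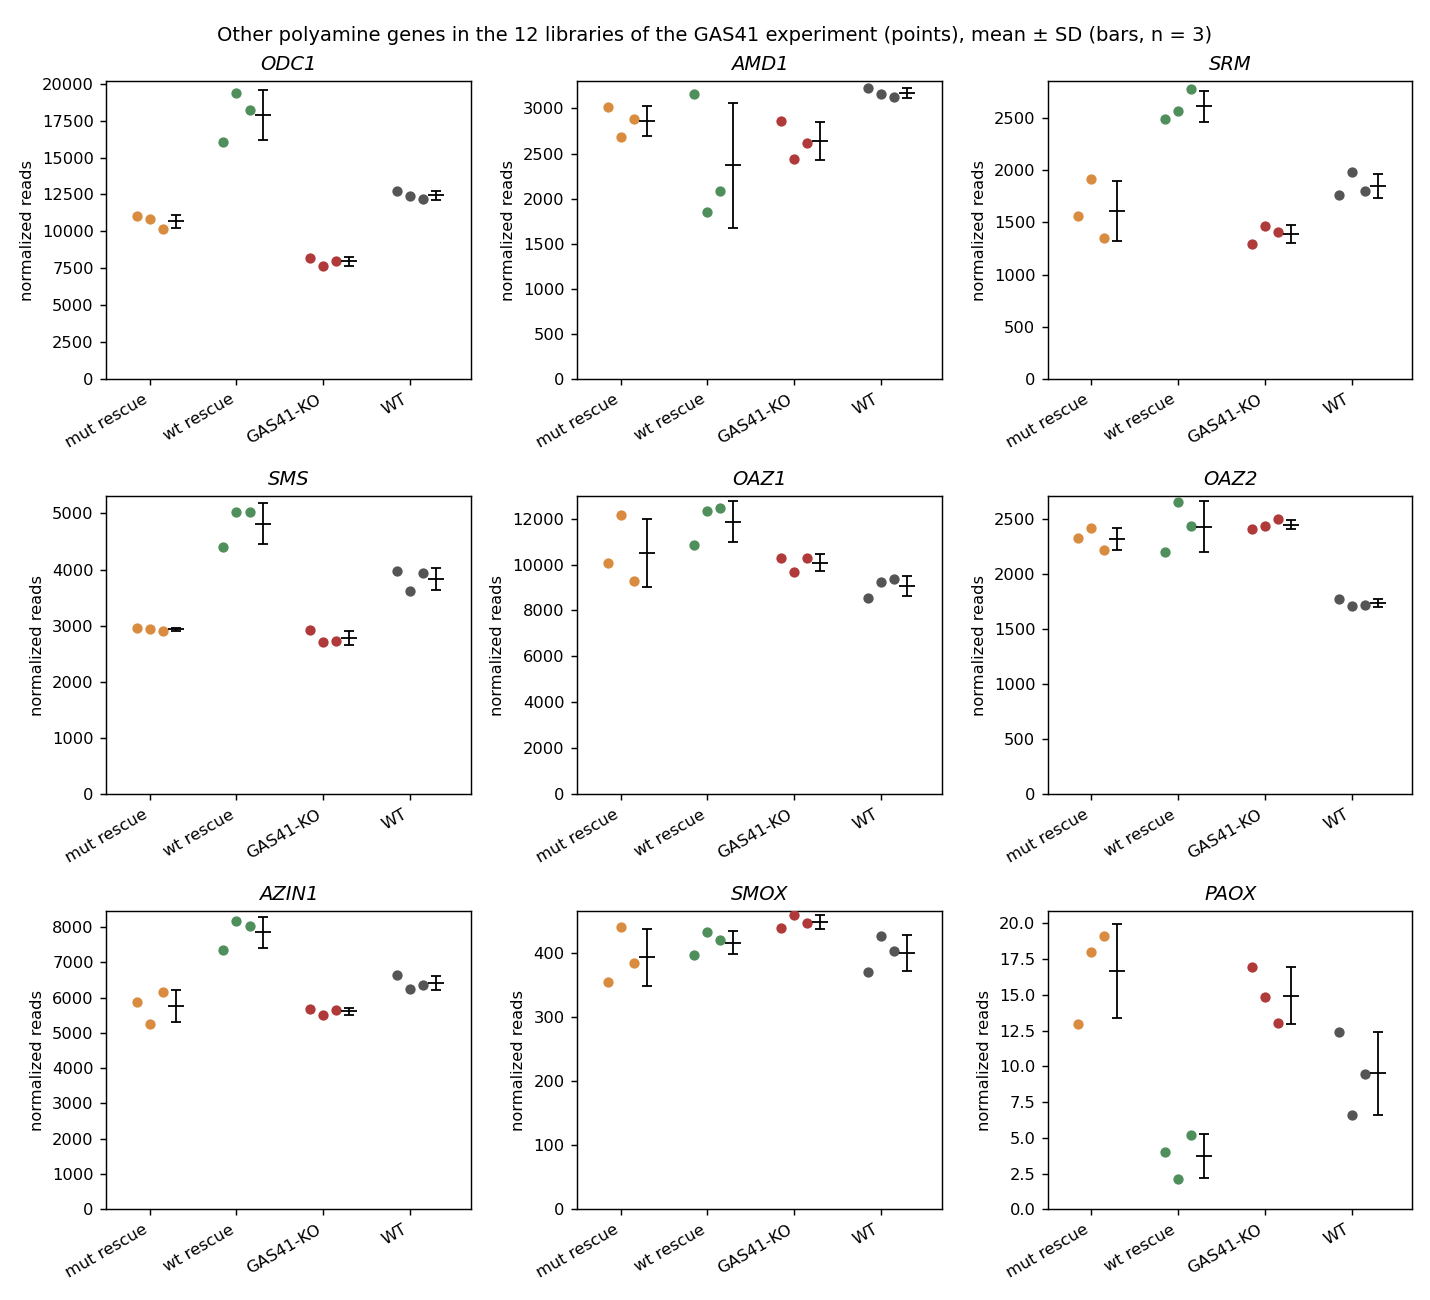
Normalized reads (vertical axes, each from 0) of the 9 other genes in the 12 libraries of the GAS41 experiment, by group; points are libraries and bars the mean ± SD (n = 3). ODC1, SRM and SMS are highest in wt rescue and lowest in GAS41-KO, AMD1 is split within wt rescue, and PAOX stays under 20 normalized reads.

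The antizymes and their inhibitor control ornithine decarboxylase protein. OAZ2, antizyme 2, had 2321, 2417 and 2213 normalized reads in mut rescue, 2198, 2656 and 2430 in wt rescue, 2408, 2437 and 2496 in GAS41-KO, and 1773, 1705 and 1721 in WT. WT lay below all 9 other libraries, which overlapped one another. OAZ2 rose 1.41-fold in GAS41-KO over WT (log2 change 0.46, limma adjusted p = 2.13e-05) and rose in wt rescue over WT (log2 change 0.45, limma adjusted p = 0.000108), and its change in wt rescue over GAS41-KO was -0.01 (95% confidence interval -0.15 to 0.13, limma adjusted p = 0.857). It also rose in mut rescue over WT (log2 change 0.39, limma adjusted p = 0.000155). After quantile normalization the change in wt rescue over GAS41-KO was -0.14 (limma adjusted p = 0.0401).

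OAZ1, antizyme 1, had 10054, 12164 and 9294 normalized reads in mut rescue, 10832, 12313 and 12458 in wt rescue, 10301, 9661 and 10287 in GAS41-KO, and 8560, 9239 and 9391 in WT. The groups lay close together, and mut rescue alone spanned most of the range. OAZ1 was called higher in wt rescue over GAS41-KO (log2 change 0.23, limma adjusted p = 0.0278), but this turned to -0.030 after quantile normalization (limma adjusted p = 0.709) and was 0.10 with wt rescue replicate 1 alone (limma adjusted p = 0.445). The call was also lost without wt rescue replicate 2 or 3 or without GAS41-KO replicate 2, with adjusted p up to 0.103. It was also called higher in wt rescue over WT (log2 change 0.38, limma adjusted p = 0.00216). In GAS41-KO over WT its change was 0.15 (limma adjusted p = 0.154), against 0.20 after quantile normalization (limma adjusted p = 0.0185).

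AZIN1, the antizyme inhibitor, binds antizyme and so frees ornithine decarboxylase. It had 5869, 5249 and 6147 normalized reads in mut rescue, 7334, 8173 and 8026 in wt rescue, 5670, 5505 and 5654 in GAS41-KO, and 6643, 6250 and 6353 in WT. wt rescue was highest, and mut rescue overlapped GAS41-KO. AZIN1 rose in wt rescue over GAS41-KO (log2 change 0.47, limma adjusted p = 1.25e-05) and was lower in mut rescue than in wt rescue (log2 change -0.44, limma adjusted p = 3.81e-05). Its fall in GAS41-KO over WT was small (log2 change -0.19, limma adjusted p = 0.0254) and lost the threshold when any library but WT replicate 2 was left out, with adjusted p up to 0.0997.

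The oxidases act after or beside SAT1. SMOX, which oxidizes spermine to spermidine, had 354, 441 and 384 normalized reads in mut rescue, 396, 432 and 420 in wt rescue, 439, 459 and 446 in GAS41-KO, and 370, 427 and 402 in WT. It was not called in any of the 6 comparisons when all 12 libraries were fitted with limma or with voom, and its unadjusted p was under 0.05 in mut rescue over GAS41-KO alone (limma adjusted p = 0.160). It was called higher in GAS41-KO over WT with only those groups fitted (limma adjusted p = 0.0236) and lower in mut rescue over GAS41-KO without mut rescue replicate 2 (limma adjusted p = 0.0314). In GAS41-KO over WT its log2 change was 0.13 with a 95% confidence interval of -0.01 to 0.27.

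PAOX, which oxidizes acetylated polyamines, was near the floor of the assay. Its raw reads were 13, 18 and 19 in mut rescue, 4, 2 and 5 in wt rescue, 17, 15 and 13 in GAS41-KO, and 13, 7 and 10 in WT. It passed the filter of 10 reads through 8 of the 12 libraries, none of them wt rescue. A lower PAOX level in wt rescue may therefore follow in part from the filter, in every comparison with that group. limma called PAOX lower in wt rescue than in GAS41-KO (adjusted p = 0.000235), but at these counts no fold is given, and the deposited log2 scale compresses such genes.

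**Figure D3:**
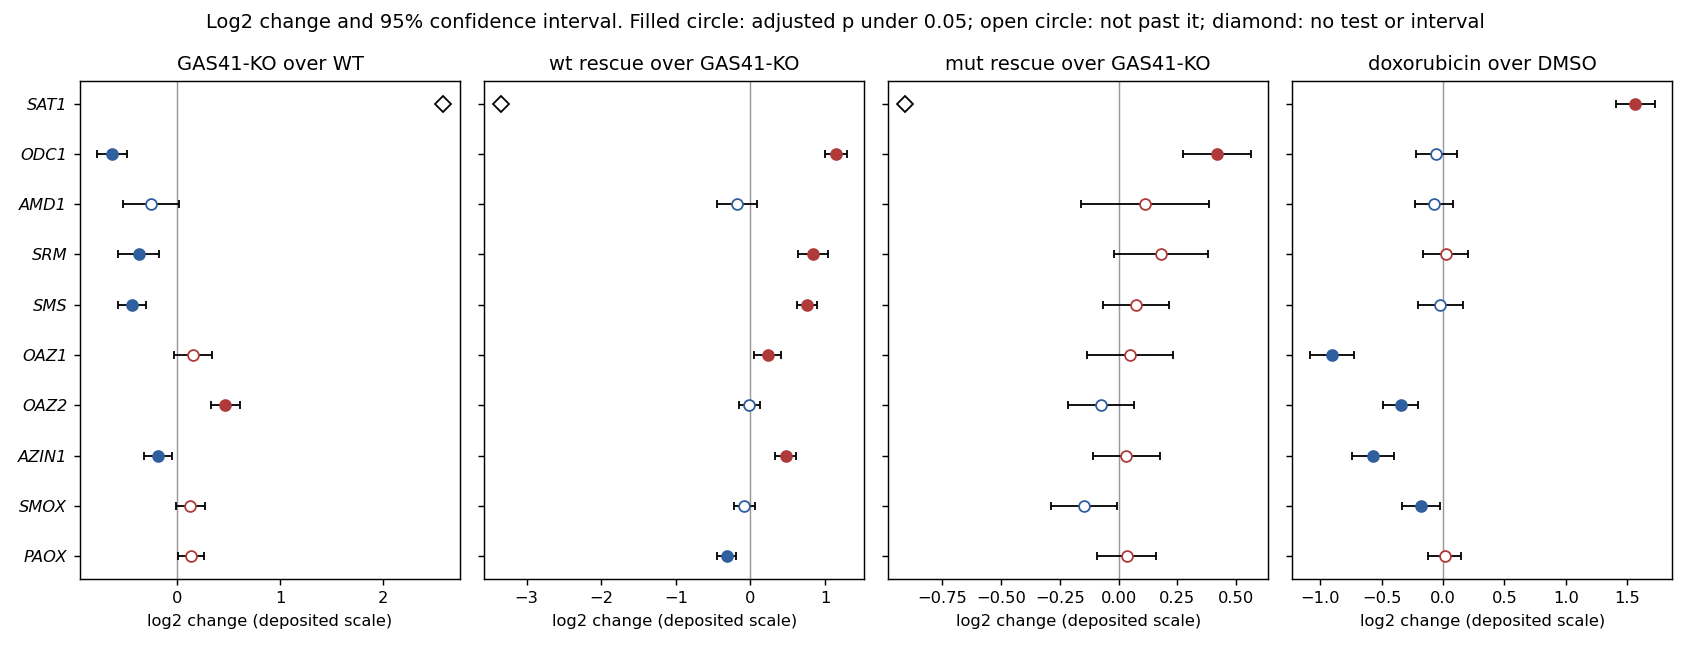
Log2 change on the deposited scale (horizontal axes, which differ between panels) with its 95% confidence interval for the 10 genes in 4 comparisons; filled circles passed an adjusted p of 0.05 with limma, open circles did not, and diamonds mark SAT1 where it has no test or interval. SAT1 and ODC1 lie on opposite sides of 0 in the 3 GAS41 panels, and with doxorubicin SAT1 is at 1.57 while ODC1 is at -0.05.

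In wt rescue over GAS41-KO, 5 of the 9 genes rose (ODC1, SRM, SMS, OAZ1 and AZIN1) and PAOX fell. PAOX passed the filter through no wt rescue library, so its call may follow in part from the filter. In wt rescue over GAS41-KO 66% of tested genes were called, 33% in each direction, and the groups did not overlap for 7 of the 9 genes and for 68.8% of tested genes. In mut rescue over GAS41-KO, ODC1 rose and no gene fell, so 1 of 9 was called. In mut rescue over GAS41-KO 14.9% of tested genes passed, 5.92% upward and 9% downward, and the groups did not overlap for 1 of the 9 genes and for 33.7% of tested genes. The count was 2 without mut rescue replicate 2, when SMOX was also called lower, and 2 without mut rescue replicate 3, when SRM was also called higher. These comparisons share the GAS41-KO libraries with GAS41-KO over WT.

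Between the rescue lines, 2 of the 10 genes rose (SAT1 and PAOX) and 4 fell (ODC1, SRM, SMS and AZIN1). The PAOX call may follow in part from the filter, which no wt rescue library of that gene reached. In mut rescue over wt rescue 61.1% of tested genes passed, 29.8% upward and 31.3% downward, so 6 of 10 is near the background. The groups did not overlap for 6 of the 10 genes and for 57.9% of tested genes. AMD1, OAZ1, OAZ2 and SMOX did not pass the threshold there. AMD1 did without wt rescue replicate 1 (log2 change 0.51, limma adjusted p = 3.39e-06) and with the replicate number as a block. OAZ1 was lower there without mut rescue replicate 2 (log2 change -0.29, limma adjusted p = 0.00330) or without wt rescue replicate 1 (log2 change -0.24, limma adjusted p = 0.0122).

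Compared with WT, wt rescue had 6 of the 9 genes higher (ODC1, SRM, SMS, OAZ1, OAZ2 and AZIN1) and 2 lower (AMD1 and PAOX). For PAOX, near the floor, this call may also follow in part from the filter. In wt rescue over WT 50.1% of tested genes passed, 27.4% upward and 22.7% downward, and the groups did not overlap for 7 of the 9 genes and for 57.3% of tested genes. With wt rescue replicate 1 alone 3 were called (ODC1, SRM and OAZ2), and after quantile normalization 5 were called, with SMS, AZIN1 and PAOX lost. The PAOX call was also lost without WT replicate 1 (limma adjusted p = 0.0820) or wt rescue replicate 2 (limma adjusted p = 0.0859).

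In mut rescue over WT, OAZ2 and PAOX were higher and ODC1 and SMS lower. In mut rescue over WT 46.3% of tested genes passed, 23.5% upward and 22.9% downward, and the groups did not overlap for 6 of the 9 genes and for 56% of tested genes. The ODC1 call had a limma adjusted p of 0.0162, against 0.0642 without WT replicate 1 and 0.0586 without mut rescue replicate 3. The PAOX call was lost without WT replicate 2 or 3 or without mut rescue replicate 2 or 3, with adjusted p up to 0.152. SRM was also called lower without mut rescue replicate 2 (limma adjusted p = 0.00383), and without mut rescue replicate 3 OAZ1 was also called higher (limma adjusted p = 0.0142) and AZIN1 lower (limma adjusted p = 0.0271).

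The ratio of SAT1 to ODC1 within a library does not depend on the size factor. Relative to the WT mean it was 3.86, 3.57 and 4.03 in mut rescue, 0.429, 0.393 and 0.385 in wt rescue, 9.59, 9.87 and 9.46 in GAS41-KO, and 0.973, 0.986 and 1.04 in WT. The groups did not overlap, and wt rescue was the only group below WT. Relative to the DMSO mean it was 3.06, 3.19 and 3.21 in doxorubicin cells and 0.990, 1.03 and 0.982 in DMSO cells. Since SAT1 was chosen for its rise in the knockout, the ratio in the GAS41 experiment is a description.

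**Figure D4:**
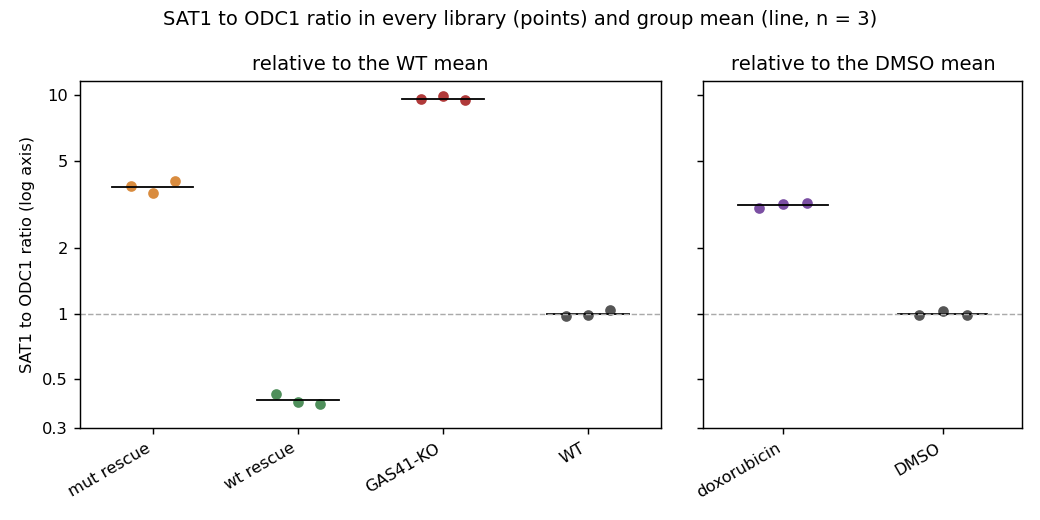
Ratio of SAT1 to ODC1 normalized reads in each library (vertical log axis), relative to the mean of WT (left) or DMSO (right); points are libraries and lines the group means (n = 3). GAS41-KO stands at 9.64, mut rescue at 3.82 and wt rescue at 0.402, and doxorubicin at 3.16.

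With doxorubicin SAT1 rose, 4 of the 10 genes fell (OAZ1, OAZ2, AZIN1 and SMOX), and none of the 4 synthesis genes passed the threshold. In doxorubicin over DMSO 65.7% of tested genes passed, 32.3% upward and 33.4% downward, so 5 of 10 is not above the background. The groups did not overlap for 5 of the 10 genes and for 69.1% of tested genes.

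ODC1 had 13854, 14574 and 13934 normalized reads in doxorubicin cells, against 15743, 13840 and 14475 in DMSO cells. The groups overlapped, and the log2 change was -0.05 with a 95% confidence interval of -0.22 to 0.11 (limma adjusted p = 0.548). For SRM the change was 0.02 (interval -0.16 to 0.21), for SMS -0.02 (interval -0.205 to 0.16) and for AMD1 -0.07 (interval -0.23 to 0.08). MYC averaged 6041 ± 72.3 in doxorubicin cells and 6826 ± 377 in DMSO cells (SD, n = 3 each).

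OAZ1 had 6217, 7033 and 5894 normalized reads in doxorubicin cells, against 11895, 12933 and 11557 in DMSO cells. It fell clear of the DMSO range, and was 1.90-fold lower with the drug (log2 change -0.91, limma adjusted p = 6.75e-07). AZIN1 had 3174, 2781 and 3082 in doxorubicin cells, against 4634, 4179 and 4893 in DMSO cells. It was 1.52-fold lower with the drug (log2 change -0.57, limma adjusted p = 3.34e-05). OAZ2 had 1457, 1501 and 1391 in doxorubicin cells, against 1813, 1911 and 1950 in DMSO cells, and was 1.30-fold lower (log2 change -0.34, limma adjusted p = 0.000468).

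SMOX had 538, 527 and 505 normalized reads in doxorubicin cells, against 692, 597 and 561 in DMSO cells. The call was marginal (log2 change -0.18, limma adjusted p = 0.0449) and was lost when any library but DMSO replicate 3 was left out, with adjusted p up to 0.157. PAOX had raw reads of 9, 15 and 21 in doxorubicin cells and 17, 12 and 13 in DMSO cells, which overlap (limma adjusted p = 0.869).

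Other genes of the pathway were counted from 5 lists with 37 genes. In GAS41-KO over WT 29 were tested, 5 rose and 16 fell, with a median log2 change of -0.20 against -0.01 over all tested genes and 52.6% of all tested genes called. In wt rescue over GAS41-KO 15 rose and 6 fell, where 66% of all tested genes were called. In mut rescue over wt rescue 4 rose and 16 fell, where 61.1% were called. With doxorubicin 10 rose and 12 fell of 28 tested, where 65.7% were called.

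Genes that bring in or use ornithine had 4 falls and 1 rise among 7 tested in GAS41-KO over WT, against 26.6% of all tested genes lower and 26% higher. SLC7A1, a transporter of arginine and other cationic amino acids, averaged 2855 ± 28.1 normalized reads in GAS41-KO and 4302 ± 158 in WT (SD, n = 3 each, limma adjusted p = 2.58e-06), and 1275 ± 172 in doxorubicin cells against 3815 ± 234 in DMSO cells (limma adjusted p = 1.48e-08). Its relative SLC7A2 averaged 299 ± 13.1 in GAS41-KO and 601 ± 32.6 in WT, and 85.9 ± 15.8 in doxorubicin cells against 434 ± 57.6 in DMSO cells. SLC25A15, the mitochondrial ornithine carrier, averaged 379 ± 25.9 in GAS41-KO and 740 ± 26.4 in WT, but was higher in doxorubicin cells, at 974 ± 51.5, than in DMSO cells, at 616 ± 43.7. ARG2, the mitochondrial arginase that makes ornithine, averaged 730 ± 44.0 in doxorubicin cells and 279 ± 24.7 in DMSO cells (limma adjusted p = 4.19e-08). Of the 6 genes of this list tested with doxorubicin 3 rose and 3 fell, where 65.7% of all tested genes were called.

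Genes of the methionine and methylthioadenosine cycle had 3 falls and 1 rise among 8 in GAS41-KO over WT, near the 52.6% called over all tested genes. MAT2A, which makes S-adenosylmethionine, averaged 5292 ± 75.2 in GAS41-KO and 7325 ± 71.2 in WT (limma adjusted p = 6.71e-06). ENOPH1, of the salvage pathway, averaged 1011 ± 10.8 in GAS41-KO and 1669 ± 59.8 in WT (limma adjusted p = 1.28e-07). MTAP, which clears the methylthioadenosine left by SRM and SMS, was higher in GAS41-KO, at 6794 ± 362, than in WT, at 5284 ± 165 (limma adjusted p = 0.000304). With doxorubicin 1 of 8 rose and 4 fell, near the 65.7% called over all tested genes. The salvage isomerase MRI1 rose to 927 ± 70.8 in doxorubicin cells, against 350 ± 10.9 in DMSO cells (limma adjusted p = 2.02e-08), while the salvage dehydratase APIP fell to 324 ± 29.2 in doxorubicin cells, against 611 ± 34.8 in DMSO cells (limma adjusted p = 2.12e-06).

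Of 12 genes linked to polyamine transport 7 were tested in GAS41-KO over WT, and of these 2 rose (ATP13A2 and GPC1, named after their values were seen) and 5 fell, where 52.6% of all tested genes were called. ATP13A2, a lysosomal polyamine exporter, averaged 1631 ± 103 in GAS41-KO and 1086 ± 92.0 in WT (limma adjusted p = 7.21e-05). CAV1, the caveolar protein, averaged 1907 ± 99.8 in GAS41-KO and 6675 ± 156 in WT (limma adjusted p = 4.76e-12). SLC3A2, the heavy chain of amino acid transporters that has been tied to polyamine export together with SAT1, averaged 2878 ± 35.4 in GAS41-KO and 5494 ± 237 in WT (limma adjusted p = 1.22e-07). The vesicular polyamine transporter SLC18B1 averaged 394 ± 21.0 in GAS41-KO and 631 ± 14.9 in WT. With doxorubicin 5 of 7 rose and 2 fell, where 65.7% of all tested genes were called. Among those that rose was GPC1, a heparan sulphate proteoglycan, at 7192 ± 219 in doxorubicin cells and 2366 ± 364 in DMSO cells (limma adjusted p = 1.34e-08). CAV1 was higher with the drug, at 13407 ± 202 against 7516 ± 349 in DMSO cells, and SLC3A2 lower, at 4257 ± 230 against 7737 ± 787 in DMSO cells.

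Spermidine is also used to make hypusine on the translation factor eIF5A, and all 4 genes of that step fell in GAS41-KO over WT, where 26.6% of all tested genes were lower. EIF5A averaged 12390 ± 285 in GAS41-KO and 17095 ± 1659 in WT (limma adjusted p = 0.000386), and DOHH, the hydroxylase of the second step, averaged 332 ± 3.35 in GAS41-KO and 527 ± 38.4 in WT (limma adjusted p = 0.000141). In wt rescue over GAS41-KO 3 of the 4 rose and EIF5A2 fell, where 66% of all tested genes were called, 33% in each direction. With doxorubicin DOHH rose and the other 3 fell, where 65.7% of all tested genes were called, with EIF5A at 10964 ± 770 in doxorubicin cells and 22232 ± 1044 in DMSO cells (limma adjusted p = 1.54e-07).

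Of the close relatives of the 10 genes, 3 were tested in GAS41-KO over WT. AZIN2, the second antizyme inhibitor gene, rose, with 119 ± 5.29 normalized reads in GAS41-KO and 58.5 ± 1.14 in WT (limma adjusted p = 1.48e-06), which is opposite in sign to AZIN1. SAT2, the relative of SAT1, averaged 534 ± 44.9 in GAS41-KO and 473 ± 21.8 in WT (limma adjusted p = 0.137), and 579 ± 35.8 in doxorubicin cells and 566 ± 4.47 in DMSO cells (limma adjusted p = 0.751). OAZ3 averaged 16.6 ± 3.13 in GAS41-KO and 10.4 ± 0.06 in WT (limma adjusted p = 0.111).

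The genes whose pattern was most like that of SAT1 over the 12 GAS41 libraries were SAMD9, SESN3, PARP9, ETV1 and JAG1, by the root mean square difference of the centred log2 values (0.17, 0.20, 0.24, 0.25 and 0.27). They were taken from 10569 genes with a mean of at least 100 normalized reads. With doxorubicin JAG1 was higher (log2 change 0.69), SESN3 (-0.51) and ETV1 (-1.58) were lower, and SAMD9 (-0.09, limma adjusted p = 0.370) and PARP9 (0.04, limma adjusted p = 0.607) did not pass the threshold.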

How the data were processed

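RNA was measured in 18 libraries, 12 of the GAS41 experiment (poly-A RNA on a BGISEQ-500) and 6 of the doxorubicin experiment (Illumina HiSeq), per the labels' protocols. Per the submitters' processing notes, the tools were DESeq2, HTSeq, TopHat2 2.1.0, Trimmomatic 0.36, CASAVA 1.4 and Bowtie 1.0.1 and the builds hg19 and mm9, in no stated role. The annotation is not given in the sources used here. The 26 ChIP and input samples were not analysed here.

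The deposited tables hold variance-stabilized log2 values, which the authors made from size-factor normalized reads. The values themselves show it, since inverting the transformation gave whole reads to within 0.01 for 100% of values, with size factors equal to median-ratio factors. The scale compresses low genes, 1 log2 unit over the minimum being 39.1 normalized reads (GAS41 table) or 52.6 (doxorubicin table). CPM values here are these reads over the library total, not values the authors deposited. The deposited values are not counts, so the main test is not a count model, and the recovered reads entered limma's voom as an alternative.

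Genes with at least 10 reads in at least 3 libraries were tested (14505 and 14195) by limma 3.58.1 (R 4.3.3, eBayes with a trend) on the deposited values, in 1 fit over the 12 GAS41 libraries and 1 over the other 6. The p-values were adjusted by Benjamini-Hochberg over all tested genes of each of 7 comparisons, called at 0.05. Folds are ratios of mean normalized reads. The procedure was tested on simulated data. Reads of near-identical copies, such as pseudogenes, cannot be told apart here.

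The 10 genes were taken by symbol, and all of them are given in every comparison. From the other pathway lists, the 3 genes with the smallest p in GAS41-KO over WT or with doxorubicin may be named, and YEATS4, MYC and the 5 genes most like SAT1, passing over clone names, pseudogenes and small RNAs, are given too. Members and lists were chosen with earlier results of these data known. Alternatives were no filter, quantile normalization, voom on the recovered reads, the replicate number as a block, only the 2 groups compared, wt rescue replicate 1 alone and each library left out. Python 3.11.15 and matplotlib 3.10.9 served for the rest.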

Additional observations from a re-analysis of the deposited data

How the results depend on the processing

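SAT1 kept its direction in all 7 comparisons under all alternatives. It moved by more than the spread between replicates to 2.63 in GAS41-KO over WT with voom, to -3.49 (quantile normalization) and -3.42 (voom) in wt rescue over GAS41-KO, and to -0.89 (quantile normalization) and -0.81 (wt rescue replicate 1 alone) in wt rescue over WT. Counts of called genes among the other 9 were 8 rather than 5 in GAS41-KO over WT with only those groups in the fit, 1 to 2 with a library left out in mut rescue over GAS41-KO, and 5 (quantile normalization) or 3 (wt rescue replicate 1 alone) rather than 8 in wt rescue over WT; the cause was not tested. Where the main or the recomputed value was called, signs turned for AMD1 (0.25 with wt rescue replicate 1 alone) and OAZ1 (-0.030 after quantile normalization) in wt rescue over GAS41-KO. Small changes without a call also turned sign, such as OAZ2 in that comparison (-0.08 to 0.05 with a library left out). For single genes other than SAT1, 654 recomputed values kept their call or their lack of a call, 36 lost and 19 gained a call. A turned sign was counted as kept where neither value was called. The labels do not say that replicate numbers pair the samples, and not every pair of same-numbered libraries deviated together: correlations were -0.39 to 0.48 with a median of 0.14 in the GAS41 experiment, against a median of -0.05 for different numbers, and -0.39 to 0.15 in the other. With the replicate number as a block the members called in GAS41-KO over WT were 6, with AMD1 added (limma adjusted p = 0.0443), and in mut rescue over wt rescue 7, again with AMD1 (limma adjusted p = 0.0201). PAOX is limited by depth.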
